A study of Arabidopsis thaliana with 30 samples.

Results

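Late in development, seed of the Arabidopsis thaliana mutant lec1-1 held transcripts of a set of genes that were higher in wild-type seedlings than in any wild-type seed group. The set was chosen by measured values, and 29 of its 58 members were below 100 on every wild-type seed array of the ATH1 GeneChip. On that chip a probe set was a member when the group mean signal plus 50 in wild-type seedlings was at least 4 times the highest of the 4 wild-type seed groups. In lec1-1 post-mature green seed it also had to reach 4 times that same value while staying under 4 times the seedlings. Of 22746 probe sets without controls, 60 met this rule, and leaving out PYK10 and JAL34 left 58 members. By comparison, 649 probe sets passed the seedling part of the rule, and 588 of these stayed under 4 times in lec1-1 post-mature green seed. These 588 are called the other seedling genes below.

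LEC1 encodes a subunit of the NF-Y transcription factor that acts in the embryo, and it is needed for the storage reserves and the drying tolerance of a mature seed. Embryos of lec1 mutants are known for leaf-like cotyledons and for entering germination without the normal arrest. The seedling programme turns on chloroplast, cell wall, root and defence genes after imbibition, among them genes of the endoplasmic reticulum (ER) body, a compartment of Arabidopsis seedlings that stores beta-glucosidases.

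Seed RNA was compared in ecotype Ws-0, from plants grown in a chamber under continuous light. The lec1-1 seed was collected 24 hours after fertilization, as globular and cotyledon stage seed, and at the mature green and post-mature green stages. The wild type was collected as 24-hour and cotyledon stage seed, at both later stages of the green seed and as seedlings 3 days after imbibition. Each of these 10 groups had 2 ATH1 arrays, called biological replicates in the labels, which do not say how plants were divided between them, so p-values measure the spread between these arrays. A further 10 AtGenome1 arrays held 1 sample per group on 2 technical arrays, and those used here are from lec1 seed (no allele number given) and wild-type seed at mid-maturation and from wild-type seed at late maturation. Arrays and signals are those of ATH1 unless AtGenome1 is named. Signals are MAS 5.0 intensities, which the authors scaled to 500 on each array per the labels, and the number of arrays limits their precision. Values given with the verb "read" are such signals, by array. The deposited values carry no detection calls, so a signal below 100 is treated here as a bound only.

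Of the 58 member probe sets, 26 name 1 gene each, 3 are assigned to several genes and 29 carry no gene name in the annotation used. The 26 genes lie on all 5 chromosomes, with 3 on chromosome 1, 3 on chromosome 2, 6 on chromosome 3, 8 on chromosome 4 and 6 on chromosome 5. No pair of these 26 genes lay within 3 genes of each other. All 58 members passed the filter of a signal of 100 on at least 2 arrays, through the groups in which they are high. No sequence of these genes was used.

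Seed reserve and photosynthesis genes check the labels. PAP85, a vicilin-type seed storage protein gene, stood at 23472 and 22901 in lec1-1 post-mature green seed, against 70271 and 73838 in wild-type seed of that stage. In seedlings PAP85 read 24.1 and 51.8. The 9 photosynthesis genes measured summed to between 17310 and 19280 in lec1-1 post-mature green seed, to between 7016 and 8625 in wild-type seed of that stage, and to between 167900 and 171200 in seedlings. Of the other tissues, the 3 seed coat genes measured of 9 listed (BAN, DELTA-VPE and PER36) summed to between 356.9 and 409.4 in lec1-1 and to between 573.2 and 672.3 in the wild type at the post-mature green stage. At the mature green stage the same 3 genes summed to between 6062 and 8608 in lec1-1 and to between 7873 and 12590 in the wild type. ALC, the only silique wall gene measured of 5 listed, read 393 and 403 in lec1-1 and 134 and 146.5 in the wild type at the post-mature green stage. The 2 endosperm genes measured of 8 listed, IKU2 and AGL62, summed to between 19.8 and 21.8 in lec1-1 and to between 41.6 and 178.9 in the wild type at that stage. The part of other tissues in the members' signals was not tested. In whole seed, fewer cells of a type and less RNA per cell cannot be told apart. No probe set named LEC1 was used, so the mutant label could not be checked on its own gene.

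**Figure D1:**
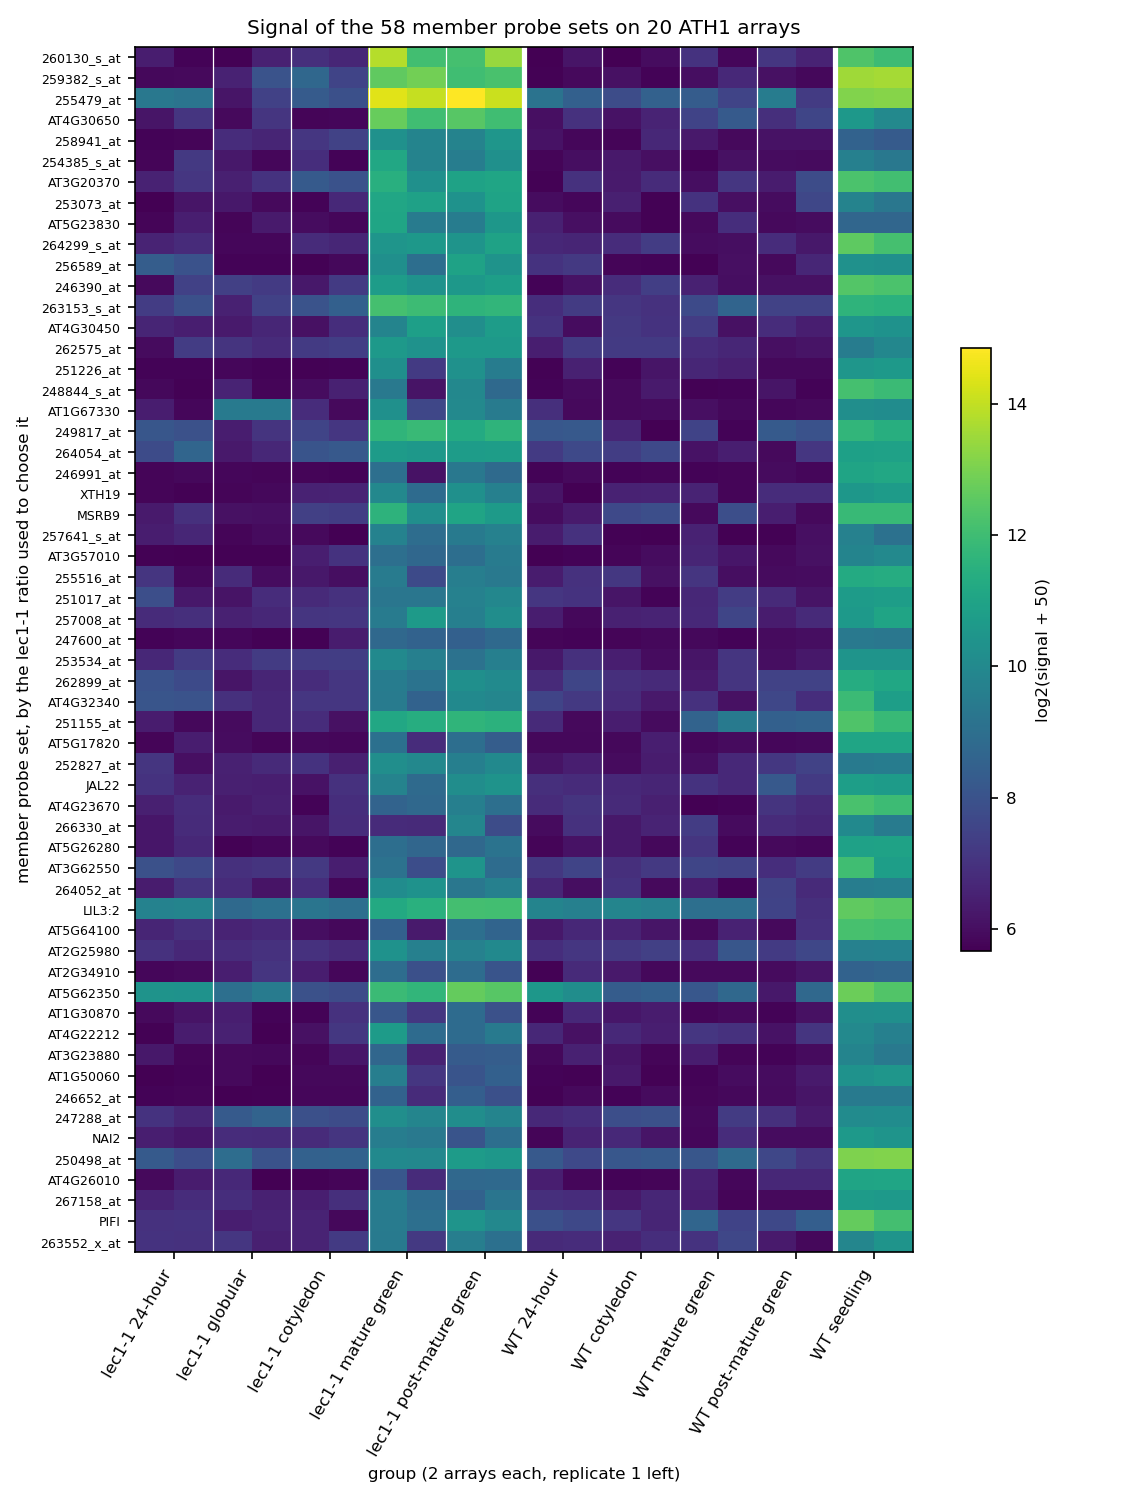
Signal of the 58 members (rows, ordered by the ratio of lec1-1 post-mature green seed to the highest wild-type seed group) on the 20 ATH1 arrays (columns, 2 per group), as log2(signal + 50). The members are bright in lec1-1 mature green and post-mature green seed and in wild-type seedlings, and dark in most other groups, with median group means of 740.0, 933 and 1607 in those 3 groups and 35.1 to 51.7 in the others.

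The median of the 58 group means was 51.7 in lec1-1 24-hour seed, 40.5 at the globular stage, 51.0 at the cotyledon stage, 740.0 at the mature green stage and 933 at the post-mature green stage. In the wild type it was 39.8 in 24-hour seed, 35.1 at the cotyledon stage, 43.8 at the mature green stage, 43.8 at the post-mature green stage and 1607 in seedlings. The low wild-type seed values, the seedling values and the lec1-1 post-mature green values chose the members and are given as a description. Of the 58 members, 24 stayed below 100 on every array outside lec1-1 mature green seed, lec1-1 post-mature green seed and seedlings. Both lec1-1 mature green arrays lay above all 8 wild-type seed arrays for 54 of 58 members. The rule did not use these mature green arrays, but it required low wild-type seed, so this count is also a description. Its share over all probe sets was not computed.

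The arrays of lec1-1 seed before the post-mature green stage played no part in the choice, so the steps between these stages were tested. In lec1-1 mature green seed, set against lec1-1 cotyledon seed, 56 of 58 members rose and 0 fell at an adjusted p under 0.05 (limma, with Benjamini-Hochberg adjustment over 18459 probe sets). The ± after each log2 difference is limma's moderated standard error (n = 2 arrays in either group), and "at least" before a fold sets the geometric mean of the brighter group against 100 where both arrays of the dimmer group were below 100. At an unadjusted p under 0.05 the count was 57, and the log2 difference was above 0 for 58. In the same step 18.8% of all tested probe sets were called higher and 17.8% lower. The members' median log2 difference was 2.76, with a range of 0.27 to 6.57, while the median of all tested probe sets was 0.03. Of the other seedling genes, 202 of 588 were called higher (34.4%) and 33 lower, with a median log2 difference of 0.54. The lec1-1 post-mature green signal, from the next stage, split these genes from the members. The contrast between the 2 sets is therefore not independent of the choice. Without the first lec1-1 mature green array the members' count was 47, and without the second it was 57.

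Before the mature green stage 43 to 48 of the 58 members were below 100 on both arrays of each lec1-1 group, where differences have no order, so the counts of calls there are no result about the members. For the 2 globular arrays the labels state neither software nor scaling, so any difference in processing and the globular stage cannot be told apart. In lec1-1 globular seed, set against lec1-1 24-hour seed, 4 members rose and 8 fell, against 13.4% and 16.5% of all tested probe sets. The median log2 difference of the members was -0.07, and that of all tested was -0.06. Without the first 24-hour array 2 members rose and 5 fell. In lec1-1 cotyledon seed, set against lec1-1 globular seed, 4 members rose and 2 fell, against 8.27% and 6.9% of all tested. The members' median was 0.12 and that of all tested 0.01. Without the first globular array the count was 2, and without the second cotyledon array it was 3.

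The unnamed probe sets among these calls are given after their values were seen. In lec1-1 globular seed the 4 that rose over 24-hour seed were AT1G67330, 247288_at, 259382_s_at and 258941_at, the last of which was below 100 at both stages. Probe set 247288_at read 257.5 and 333.5 in globular and 79.6 and 49.7 in 24-hour seed of lec1-1, at least 2.93-fold higher (adjusted p = 0.00145, limma). The 8 that fell included LIL3:2 and AT4G32340, and the largest fall, of 2.46 log2 units (SE 0.52), was that of 255479_at (adjusted p = 0.0011, limma). Of these 8, 264299_s_at was below 100 at both stages. In all, 11 of the 58 members read 100 or more on both lec1-1 24-hour arrays. In lec1-1 cotyledon seed the 4 that rose over globular seed were AT3G57010, 263153_s_at, 264054_at and 264299_s_at, and AT3G57010 and 264299_s_at were below 100 at both stages. The 2 that fell were AT1G67330 and AT5G62350. Probe set 264054_at read 169 and 357 at the 24-hour, 28.6 and 52.1 at the globular and 213 and 250.5 at the cotyledon stage of lec1-1. This dip passed the test in both steps (adjusted p = 0.000608 and 0.00232, limma), which share the 2 globular arrays and so are not independent.

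**Figure D2:**
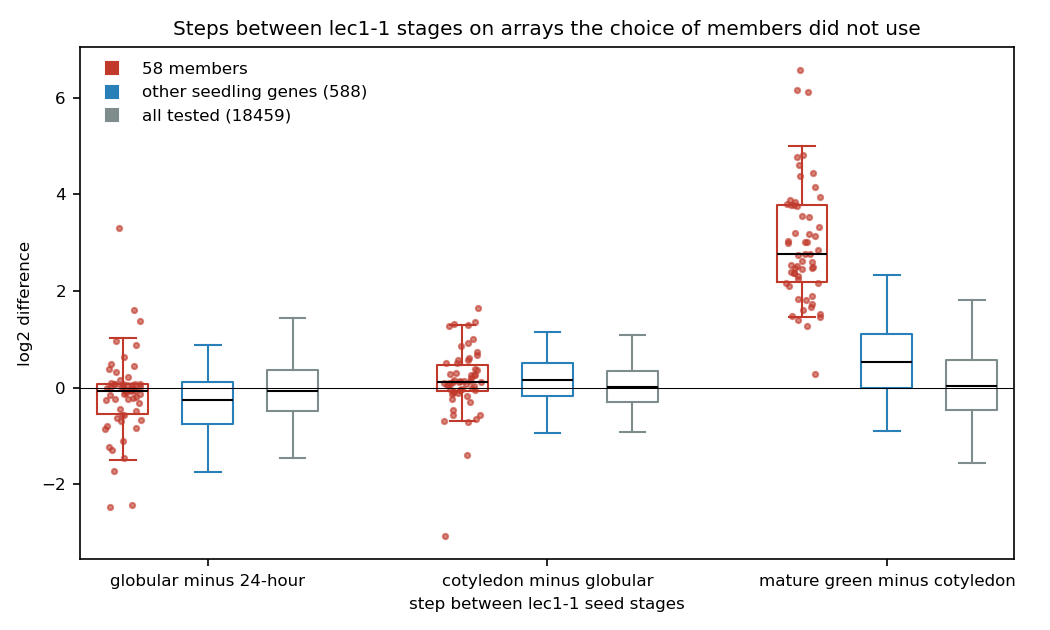
Log2 differences of the 58 members (red, each point 1 member), the 588 other seedling genes (blue) and all 18459 tested probe sets (grey) between consecutive lec1-1 stages. Boxes span the quartiles with the median as a line, and whiskers run to the 5th and 95th percentiles. The members' medians are -0.07 and 0.12 in the earlier steps and 2.76 in the step to mature green seed.

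The values of lec1-1 against the wild type at each stage follow in part from the rule, which required low wild-type seed, and are given with no test. At 24 hours 1 member, the unnamed probe set 256589_at, was at least 2-fold higher in lec1-1 with no overlap of arrays (0.325% of all tested). It read 286 and 205 in lec1-1 and 78.3 and 97.4 in the wild type. At the cotyledon stage 5 members passed the same size (0.417% of all tested). They were AT3G20370 and the unnamed probe sets 259382_s_at, 263153_s_at, 249817_at and 253534_at, named after their values were seen. Among them 259382_s_at had the highest ratio, 5.02 on signal plus 50, with 375 and 138 in lec1-1 and 18.1 and 4.1 in the wild type. At the mature green stage 55 of 58 members passed (9.63% of all tested), with a median ratio of 7.97. At the post-mature green stage, which chose them, 58 of 58 passed (16.1% of all tested), with a median ratio of 9.55.

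Among genes with links to cold and salt, AT4G30650 had the highest ratio in lec1-1 post-mature green seed of all members that name 1 gene. It encodes a small membrane protein of the low temperature and salt responsive family. Its signals were 23.2 and 86.3 in lec1-1 24-hour seed, 10.1 and 87.0 at the globular stage, 6.0 and 6.7 at the cotyledon stage, 6717 and 4157 at the mature green stage and 5588.5 and 4154.5 at the post-mature green stage. In the wild type they were 15.8 and 76.2 at 24 hours, 19.0 and 46.5 at the cotyledon, 135 and 260.4 at the mature green and 71.1 and 141 at the post-mature green stage, and 1459 and 976 in seedlings. Every late lec1-1 array thus lay above both seedling arrays, and the gene's lec1-1 post-mature green mean was 400% of the seedling mean. In lec1-1 mature green seed it rose by 6.57 ± 0.43 log2 units, at least 52.8-fold, over lec1-1 cotyledon seed (adjusted p = 5.66e-10, limma).

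Another 4 members have names linked to stress or defence and were put together here after their values were seen. MSRB9, a methionine sulfoxide reductase gene, read 3031 and 1122.5 in lec1-1 mature green seed and 119 and 111 in lec1-1 cotyledon seed, and rose by 3.53 ± 0.47 log2 units (adjusted p = 8.53e-06, limma). AT4G23670, of the major latex protein family, read 742 and 468.5 in lec1-1 post-mature green seed and 4699.8 and 3949 in seedlings. Its step to lec1-1 mature green seed was 2.37 ± 0.33 log2 units, at least 3.63-fold (adjusted p = 1.44e-05, limma). AT4G23670 thus reached 14% of its seedling mean, with no overlap of arrays. AT4G22212, a defensin-like gene, read 1633 and 417.5 in lec1-1 mature green seed against 17.5 and 94.1 in lec1-1 cotyledon seed (adjusted p = 6.83e-05, limma). AT3G62550, a universal stress protein gene, read 512 and 179.5 against 97.4 and 37.5 at those stages and rose by 1.66 ± 0.47 log2 units (adjusted p = 0.00861, limma). The AT3G62550 call was lost without the first mature green array (adjusted p = 0.167) and without the second cotyledon array (adjusted p = 0.107).

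Of 4 genes measured from a list of glucosinolate, myrosinase and ER body genes, NAI2 was the only member. NAI2 encodes a protein needed to form ER bodies. It read 35.9 and 25.6 in lec1-1 24-hour seed, 63.8 and 61.6 in globular, 60.3 and 84.5 in cotyledon, 706 and 607 in mature green and 218 and 452.5 in post-mature green seed. In the wild type NAI2 stayed below 100 in all seed, with 6.9 and 63.6 at the mature green and 12.7 and 13.3 at the post-mature green stage, and read 1508 and 1309 in seedlings. Both lec1-1 mature green arrays were above both post-mature green arrays, and the mature green mean was 196% of the post-mature green mean, the highest such share of the 58. Over lec1-1 cotyledon seed NAI2 rose by 2.53 ± 0.37 log2 units, at least 6.54-fold, in lec1-1 mature green seed (adjusted p = 2.53e-05, limma).

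In that list 3 of 4 genes rose in this step, against 18.8% of all tested probe sets, with 4 measured of 20 listed. NAI1, a transcription factor gene that acts upstream of ER bodies, was no member because its lec1-1 post-mature green ratio was 2.86 and its seedling ratio 2.63. NAI1 read 454 and 225 in lec1-1 mature green seed against 4.9 and 28.1 in lec1-1 cotyledon seed, and rose by 2.51 ± 0.38 log2 units (adjusted p = 3.11e-05, limma). BCAT4, of methionine chain elongation, rose as well (1.92 ± 0.31 log2 units, adjusted p = 6.5e-05, limma), and the lectin gene JAL33 did not pass (0.98 ± 0.39 log2 units, adjusted p = 0.059, limma). PYK10, the main ER body beta-glucosidase, and JAL34, a lectin, met the rule and were left out by it. PYK10 read 8510 and 7278 in lec1-1 mature green seed and 388 and 273 in lec1-1 cotyledon seed.

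Other jacalin lectin genes were members too. JAL22 read 1097 and 1292 in lec1-1 post-mature green seed, 819.7 and 405 in lec1-1 mature green seed and 19.0 and 76.7 in lec1-1 cotyledon seed. Both of its post-mature green arrays lay above both mature green arrays. AT2G25980 read 1243 and 753 in lec1-1 mature green seed and 75.2 and 57.9 in lec1-1 cotyledon seed, and rose by 3.13 ± 0.34 log2 units (adjusted p = 5.73e-07, limma). Of the members, AT2G25980 had the lowest seedling ratio, 4.302, with 66.2 and 227 in wild-type mature green seed and 789 and 803 in seedlings. JAL22 rose by 2.75 ± 0.36 log2 units in the same step (adjusted p = 6.51e-06, limma).

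Several members act in or on the cell wall. XTH19, a xyloglucan endotransglucosylase gene, read 5.2 and 2.8 in lec1-1 24-hour seed, 6.2 and 8.0 in globular, 43.8 and 45.3 in cotyledon, 944 and 419.5 in mature green and 1187 and 768.5 in post-mature green seed. In wild-type seed XTH19 was at most 63.3 on any array, and seedlings read 1405.5 and 1606.5. Its rise in lec1-1 mature green seed over cotyledon seed was 2.85 ± 0.35 log2 units, at least 6.29-fold (adjusted p = 3.12e-06, limma). Of 8 cell wall loosening genes measured, XTH19 was the only member, 4 rose and 1 fell in this step, against 18.8% and 17.8% of all tested probe sets, with a median log2 difference of 0.65. Of the 4, XTH18 was below 100 at both stages. XTH16 rose most (4.31 ± 0.35 log2 units, adjusted p = 1.1e-08, limma) but had a lec1-1 ratio of 1.14, since wild-type 24-hour seed already read 877 and 1464.5. The expansin gene EXPA8 averaged 61.9 in lec1-1 post-mature green seed although seedlings averaged 1797.

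AT1G67330, of a family of cell wall polysaccharide methyltransferases, was high in lec1-1 at the globular stage already. It read 33.8 and 7.6 at the 24-hour stage, 653 and 624.5 at the globular, 63.1 and 9.6 at the cotyledon, 1197 and 148 at the mature green and 976 and 661 at the post-mature green stage of lec1-1. No ATH1 array of wild-type seed exceeded 68.8, and seedlings read 1131 and 1083. In lec1-1 globular seed it rose by 3.31 ± 0.56 log2 units over 24-hour seed, at least 6.39-fold (adjusted p = 0.000142, limma). In lec1-1 cotyledon seed it fell by 3.07 on the log2 scale (SE 0.56) relative to globular seed (adjusted p = 0.000828, limma). No wild-type globular seed is analysed here, so this peak has no wild-type value beside it. The peak rests on the globular arrays, whose labels state neither software nor scaling, so processing and stage cannot be told apart. In lec1-1 mature green seed AT1G67330 rose by 2.60 ± 0.56 log2 units over cotyledon seed (adjusted p = 0.00111, limma), with mature green arrays that differed widely.

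AT5G62350, of the pectin methylesterase inhibitor family, was expressed in young seed of both genotypes. It read 1282 and 1238 in lec1-1 24-hour seed, 465.5 and 674 in globular, 195 and 172 in cotyledon, 3789 and 3251 in mature green and 6518 and 5514.5 in post-mature green seed. The wild type read 1414 and 1102 at 24 hours, 276 and 312 at the cotyledon, 238 and 387 at the mature green and 26.9 and 383 at the post-mature green stage, and 6951 and 5146 in seedlings. The genotypes overlapped at 24 hours, lec1-1 lay below the wild type at the cotyledon stage, and it lay above the wild type at the mature green and post-mature green stages. In lec1-1 AT5G62350 fell by 1.39 on the log2 scale (SE 0.46) in cotyledon seed relative to globular seed (adjusted p = 0.0488, limma), a call lost without any of the 4 arrays, with adjusted p of 0.0939 to 0.249. It then rose by 3.93 ± 0.46 log2 units in lec1-1 mature green seed (adjusted p = 1.61e-06, limma). Its lec1-1 post-mature green mean was 99.5% of the seedling mean.

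The members included 4 genes of the large class III peroxidase family, secreted enzymes that act on the wall, and these were put together here after their values were seen. AT5G64100 read 463 and 346 in lec1-1 post-mature green seed and 4524 and 4196 in seedlings, which at 9.28% was the lowest share of the 58 members. AT5G17820 read 450.4 and 279 in lec1-1 post-mature green seed and 2092 and 2068 in seedlings. AT4G26010 read 383 and 393 in lec1-1 post-mature green seed and 2034 and 2080.2 in seedlings. AT1G30870 read 415 and 196 in lec1-1 post-mature green seed and 1128 and 1159 in seedlings. All 4 genes stayed below 100 on the 8 ATH1 arrays of wild-type seed, and their lec1-1 post-mature green means were 9.28% to 26.7% of the seedling means.

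At the mature green stage the peroxidase genes were at 100 or more on the first lec1-1 array and below 100 on the second. AT5G64100 read 312 and 30.5, AT5G17820 read 486 and 64.4, AT4G26010 read 239 and 62.0 and AT1G30870 read 229.9 and 92.6 in lec1-1 mature green seed. Against lec1-1 cotyledon seed AT5G17820 rose by 2.098 log2 units (SE 0.48, adjusted p = 0.00198, limma) and AT4G26010 by 1.73 ± 0.42 log2 units (adjusted p = 0.0029). AT5G64100 rose by 1.47 ± 0.49 log2 units (adjusted p = 0.0248) and AT1G30870 by 1.28 ± 0.45 log2 units (adjusted p = 0.0319). Without the first mature green array no peroxidase call remained, with adjusted p of 0.551 for AT5G64100, 0.069 for AT5G17820, 0.0839 for AT4G26010 and 0.289 for AT1G30870. Without the first cotyledon array AT5G64100 had an adjusted p of 0.0786 and AT1G30870 of 0.373, and without the second AT5G64100 had 0.106. All 4 peroxidase calls were also lost with signals floored at 100 in place of the offset.

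The difference between the lec1-1 mature green arrays ran through most members. Of the 58, 48 read higher on the first array (82.8%, against 52.1% of all tested probe sets), and the median log2 difference between the arrays was 0.56 for the members and 0.02 for all tested. For 11 members the first array read 229.9 to 1170 and the second 19.5 to 98.5, and for 0 members the reverse held. Of these 11, 6 name 1 gene, which are the peroxidase genes, AT3G23880 and AT1G50060. AT3G23880, an F-box protein gene, read 360.5 and 42.8 on the mature green arrays and 267 and 286 on the post-mature green arrays of lec1-1. Its rise over lec1-1 cotyledon seed (1.60 ± 0.49 log2 units, adjusted p = 0.015, limma) was lost without the first mature green array (adjusted p = 0.392) and without the first cotyledon array (adjusted p = 0.107). AT1G50060, of a secreted family with pathogenesis-related proteins, read 714 and 89.0 on the mature green arrays and 213 and 307 on the post-mature green arrays (step 2.48 ± 0.51 log2 units, adjusted p = 0.000706, limma). With signals floored at 100 neither AT3G23880 nor AT1G50060 was called. The 11 members were at 100 or more on both post-mature green arrays.

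**Figure D3:**
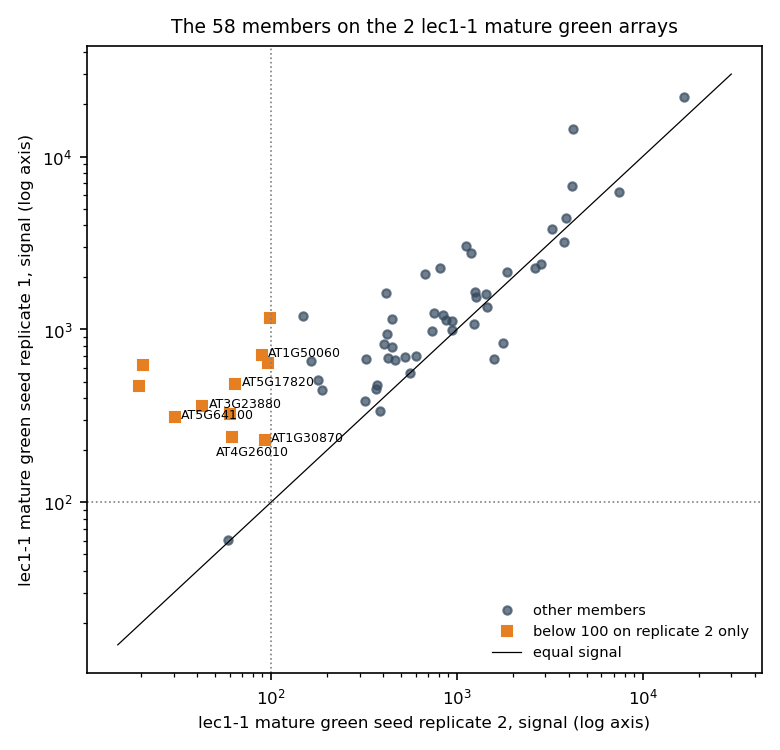
Signal of the 58 members on the first (vertical) and second (horizontal) lec1-1 mature green array, both on log axes, with dotted lines at 100. Orange squares mark the 11 members at 100 or more on the first array only, and 48 members lie above the line of equal signal.

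Of the chloroplast genes, LIL3:2 and PIFI were members. LIL3:2 encodes a light-harvesting-like protein that holds enzymes of chlorophyll synthesis in the thylakoid membrane. It read 793 and 844 in lec1-1 24-hour seed, 393 and 487.5 in globular, 547 and 469 in cotyledon, 2382 and 2828 in mature green and 4357 and 4258 in post-mature green seed. In the wild type it read 843 and 766 at 24 hours, 879.9 and 771 at the cotyledon, 470.0 and 470.0 at the mature green and 134 and 69.9 at the post-mature green stage, and 6227 and 5518 in seedlings. LIL3:2 was thus never low in young seed, and late lec1-1 seed lay above every earlier lec1-1 array and every wild-type seed array. In lec1-1 globular seed it fell by 0.83 on the log2 scale (SE 0.19) relative to 24-hour seed (adjusted p = 0.0021, limma), and in mature green seed it rose by 2.25 ± 0.19 log2 units over cotyledon seed (adjusted p = 1.82e-08, limma).

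PIFI, a chloroplast protein gene linked to electron flow through the NDH complex, read 1312 and 947.5 in lec1-1 post-mature green seed and 6493 and 4384 in seedlings. With a lec1-1 ratio of 4.01 it lay just inside the rule, and wild-type mature green seed read 356 and 133. It read 669 and 465 in lec1-1 mature green seed against 46.8 and 8.1 in lec1-1 cotyledon seed, a step of 3.02 ± 0.36 log2 units, at least 5.58-fold (adjusted p = 2.35e-06, limma). The core photosynthesis genes did not share this pattern. None of the 9 measured was a member, although 5 had a seedling ratio of 4 or more. The lec1-1 ratios of the 9, which are against the highest wild-type seed group of any stage, ran from 0.12 to 0.77. At the post-mature green stage alone, PSAN averaged 736.6 in lec1-1 and 34.75 in the wild type, and PSBW 3824 and 263.4. PSAE1, PRK, RCA, SBPASE and LHCB4.2 also averaged higher in lec1-1 there. LHCB4.1 averaged lower (4072 against 4372), as did LHCB4.3 (429.8 against 1380). Between lec1-1 cotyledon and mature green seed 0 of the 9 photosynthesis genes rose and 5 fell, with a median log2 difference of -0.91. Of all tested probe sets 18.8% were called higher and 17.8% lower in that step. RCA, the Rubisco activase gene, read 719 and 1325 in lec1-1 mature green seed against 2010.0 and 1774 in lec1-1 cotyledon seed and 24737 and 26026 in seedlings.

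The remaining members that name 1 gene have varied roles, and all of them rose in lec1-1 mature green seed. AT3G20370 and AT5G26280 encode proteins with TRAF-like domains. AT3G20370 was above the wild type at the cotyledon stage already, with 254 and 200.1 in lec1-1 against 31.2 and 61.8 in the wild type. It read 2750.0 and 1198 in lec1-1 mature green seed and rose by 2.76 ± 0.48 log2 units over lec1-1 cotyledon seed (adjusted p = 0.000161, limma). AT5G26280 read 454 and 368 in lec1-1 mature green seed against 9.5 and 3.6 in lec1-1 cotyledon seed (step 3.02 ± 0.36 log2 units, adjusted p = 2.23e-06, limma).

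AT5G23830 encodes a protein of a lipid-recognition family. It read 2105 and 671 in lec1-1 mature green seed and 678.5 and 1433 in post-mature green seed, against 13.5 and 7.4 in lec1-1 cotyledon seed and 367 and 367 in seedlings. Like AT4G30650, it was higher in late lec1-1 seed than in seedlings on every array. AT4G30450, a glycine-rich protein gene, read 837 and 1777 in lec1-1 mature green seed against 17.8 and 66.3 in lec1-1 cotyledon seed. AT5G23830 rose by 4.37 ± 0.46 log2 units (adjusted p = 3.85e-07, limma) and AT4G30450 by 3.84 ± 0.42 log2 units (adjusted p = 7.38e-07, limma).

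AT3G57010, a strictosidine synthase-like gene, had a small earlier step as well. It read 3.0 and 2.6 in lec1-1 globular seed, 37.0 and 77.8 in cotyledon seed, 474 and 373 in mature green seed and 456 and 667 in post-mature green seed. Its step from globular to cotyledon seed was 1.00 ± 0.30 log2 units (adjusted p = 0.032, limma), between values below 100, and it was lost without either globular array and without the second cotyledon array (adjusted p of 0.12 to 0.281), and with signals floored at 100. The later step to mature green seed was 2.16 ± 0.30 log2 units (adjusted p = 1.54e-05, limma).

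AT4G32340, of a tetratricopeptide repeat family, read 222 and 211 in lec1-1 24-hour seed, 74.1 and 52.8 in globular seed and 673 and 326 in mature green seed. Its fall of 1.24 on the log2 scale in lec1-1 globular seed relative to 24-hour seed (adjusted p = 0.02, limma) was lost without either 24-hour array or without the second globular array (adjusted p of 0.0763 to 0.117). It rose by 1.90 ± 0.39 log2 units in lec1-1 mature green seed over cotyledon seed (adjusted p = 0.000678, limma). AT2G34910, for which no role is given here, read 435 and 218 in lec1-1 post-mature green seed and 322.5 and 352.5 in seedlings, and its lec1-1 arrays enclosed the seedling arrays. It rose by 2.31 ± 0.42 log2 units in lec1-1 mature green seed over cotyledon seed (adjusted p = 0.000259, limma).

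**Figure D4:**
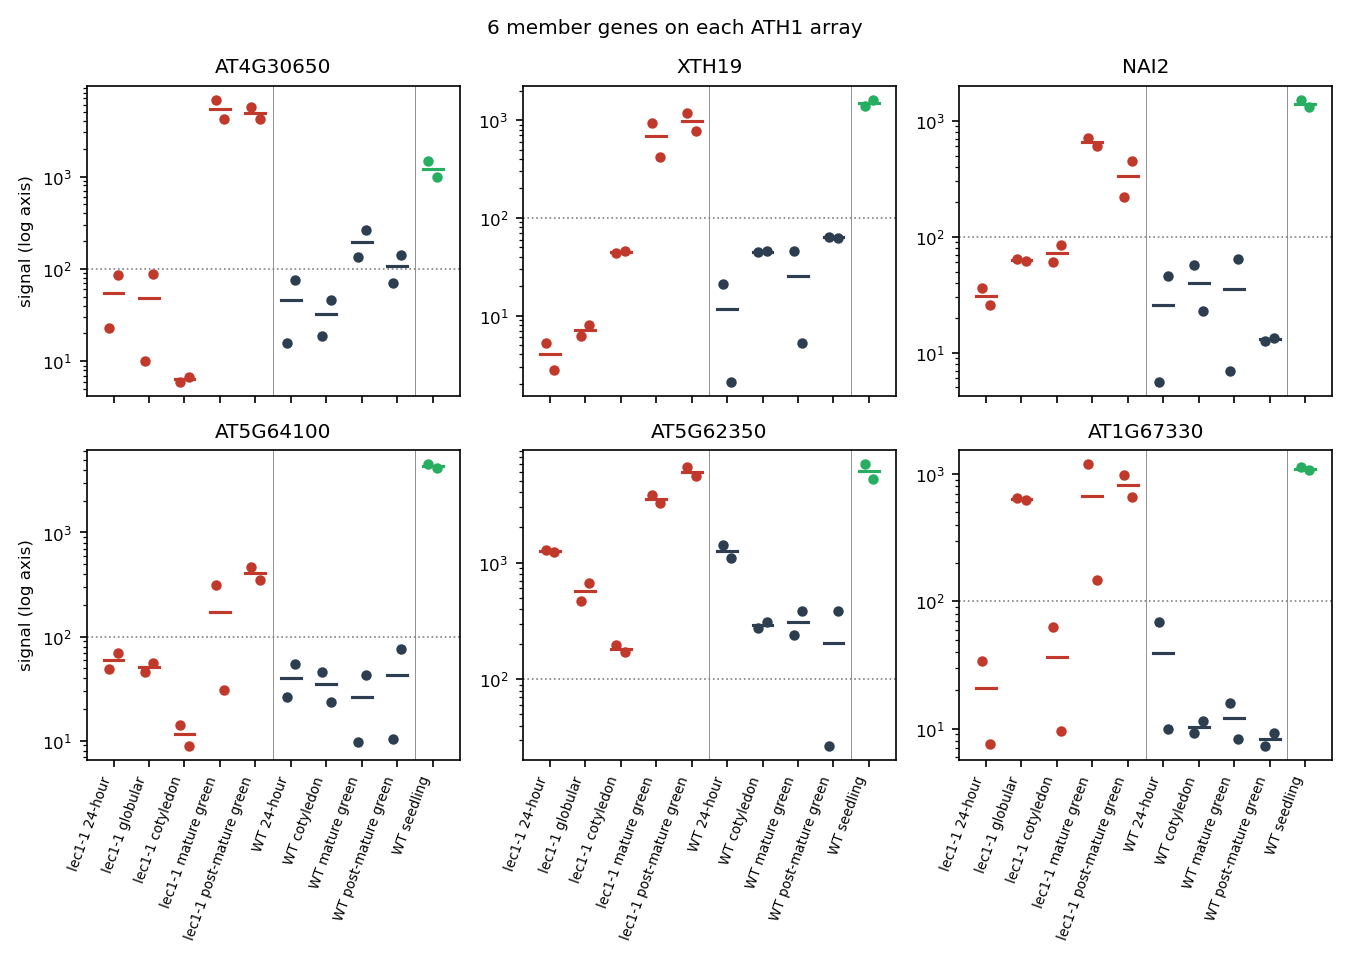
Signal on each array (points) and group mean (lines) for 6 member genes on log axes, in lec1-1 seed (red), wild-type seed (dark) and wild-type seedlings (green), with a dotted line at 100. AT4G30650 exceeds its seedling level in late lec1-1 seed, AT5G64100 stays at 9.28% of it in post-mature green seed, and AT1G67330 has a further peak of 653 and 624.5 in lec1-1 globular seed.

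Probe sets without a gene name or with several genes also rose in lec1-1 mature green seed over cotyledon seed, with 2 exceptions, and those given here were picked after their values were seen. The unnamed 255479_at had the highest lec1-1 signals, 21972 and 16676 at the mature green and 29287 and 17428 at the post-mature green stage, against 268 and 193 in lec1-1 cotyledon seed and 8670.4 and 9083 in seedlings. Probe set 260130_s_at, assigned to both BGLU21 and BGLU22, which are beta-glucosidase genes, had the highest lec1-1 ratio, 65.4. It read 4473 and 10882 in lec1-1 post-mature green seed and at most 89.3 on any wild-type seed array. The exceptions at the mature green step were 248844_s_at and 266330_at. Probe set 248844_s_at, assigned to several genes, read 622 and 20.6 in lec1-1 mature green seed and 936 and 395 in post-mature green seed (step 1.51 ± 0.65 log2 units, adjusted p = 0.0774, limma). The unnamed 266330_at read 60.2 and 59.1 in lec1-1 mature green seed and 892 and 174 in post-mature green seed (step 0.27 ± 0.54 log2 units, adjusted p = 0.737, limma), and was the member with the lowest mature green share, 11.2% of its post-mature green mean.

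The level reached in mutant seed spread widely around the seedling level. The lec1-1 post-mature green mean ranged from 9.28% to 400% of the seedling mean, with a median of 59.9%. It was above the seedling mean for 14 members, and for 9 of the 58 both lec1-1 arrays lay above both seedling arrays. For 38 members both lec1-1 arrays lay below both seedling arrays, and for 25 the share was under 50%. The members above the seedling mean that name 1 gene were AT4G30650, AT5G23830, AT2G25980 and AT4G30450. The rule capped this ratio at 4 and set its lower end through the wild-type seed level, so the range and counts only describe the chosen members. The shares of all tested probe sets with such arrays were not computed.

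The mature green mean of lec1-1 was 11.2% to 196% of its post-mature green mean, with a median of 86.8%. It was the higher for 20 members. Both mature green arrays lay below both post-mature green arrays for 15 members, among them LIL3:2, PIFI and AT5G62350, and above them for 5, among them NAI2. For the other members the arrays of these stages overlapped. The post-mature green arrays chose the members, and no share over all tested probe sets was computed, so these counts are a description only.

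**Figure D5:**
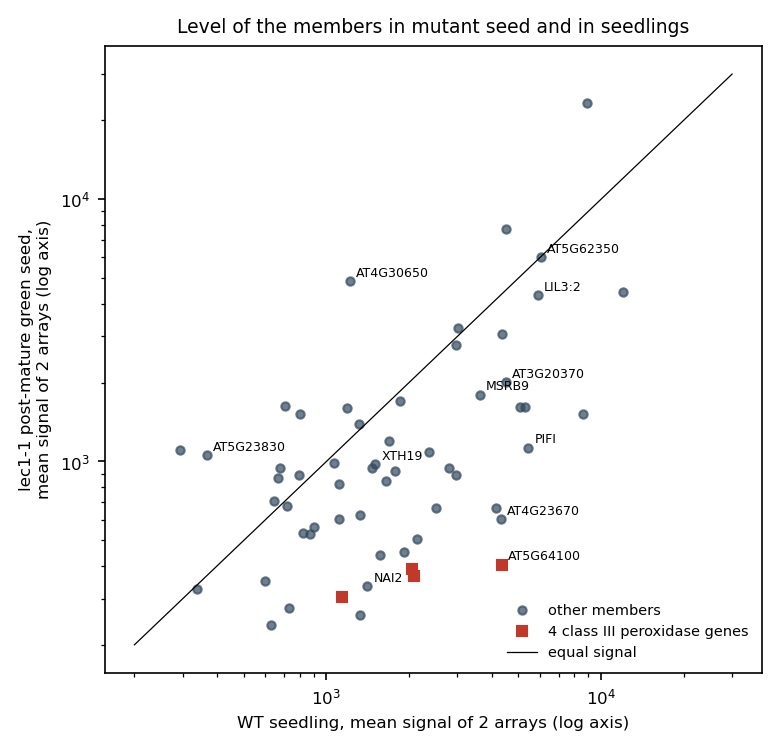
Mean signal of each of the 58 members in lec1-1 post-mature green seed (vertical) and in wild-type seedlings (horizontal), on log axes, with a line of equal signal. 14 members lie above the line, AT4G30650 at 400% of the seedling mean, and the 4 peroxidase genes (red squares) lie at 9.28% to 26.7%.

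Other lists of genes held no member, out of 43 genes matched by name to a probe set of 246 listed in all. These were photorespiration (2 measured), cuticle wax (1), defence (5), trichome and leaf patterning (3), reserve mobilisation (3) and light signalling (1), and no probe set was matched by name to the aquaporin, xylem, nutrient and hormone lists. Of the 5 defence genes 2 rose and 0 fell in lec1-1 mature green seed over cotyledon seed, against 18.8% and 17.8% of all tested probe sets. THI2.2, a thionin gene, read 147 and 13.7 in lec1-1 post-mature green seed although seedlings read 2598 and 2405.

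The thresholds of the rule cut a continuous range. Just inside the lec1-1 ratio of 4 lay 263552_x_at (4.003), PIFI (4.01) and 267158_at (4.19), and just outside lay AT3G19390 (3.99), PDF2.5 (3.98) and 266649_at (3.96). Just inside the seedling ratio of 4 lay AT2G25980 (4.302), 258941_at (4.31) and 252827_at (4.47), and just outside lay 252618_at (3.99), 257197_at (3.59) and AT1G33110 (3.55). Under the cap of 4 times the seedlings lay AT4G30650 (3.88), 258941_at (3.35) and AT5G23830 (2.65), and AT5G19100 (4.18) was the only probe set above it among those that met both other ratios.

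The AtGenome1 arrays measured 9 of the member genes in lec1 and wild-type seed at mid-maturation, a stage not matched to the ATH1 stages. These signals were scaled to 2500, so their levels are not comparable with those on ATH1. With 1 sample per group there is no test, and a gene was called by size where the means, floored at 250, differed at least 2-fold with no overlap of arrays. AT5G62350 alone was higher and none lower, with 3392 and 3454 in lec1 and 733.5 and 888 in the wild type, a 4.22-fold difference. Among all 8247 probe sets on this chip 4.53% were higher and 4.49% lower by this rule. AT4G32340 read 2000.0 and 1576 in lec1 against 1309.5 and 1424 in the wild type. AT1G67330 read 104 and 927 in lec1 against 586 and 674 in the wild type. Of the other 6 genes, the 4 peroxidases and MSRB9 lay below the floor on every mid-maturation array, so no difference could be called. AT2G25980 read 258 and 170 in lec1 against 19.2 and 24.8 in the wild type, with no overlap of arrays. The floor of 250 reduced this difference to 1.02-fold, so AT2G25980 was not called. In wild-type late maturation seed, which has no lec1 group beside it, AT5G64100 read 546 and 644, AT1G30870 read 129.8 and 364 and AT1G67330 read 358 and 529.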

How the data were processed

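The members, the gene lists and the tests were chosen with earlier results of these data known. The labels' protocols name ATH1 also for the 10 arrays whose titles and probe sets are those of AtGenome1, and the titles are followed here. The deposited ATH1 values are MAS 5.0 intensity values scaled to 500, as the labels state for all but the 2 globular arrays, and the AtGenome1 values are MAS 4.0 intensity values scaled to 2500. Array medians on ATH1 were 177 to 217. Gene names came from TAIR 10.1, used for names only.

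All 20 ATH1 arrays entered 1 limma 3.58.1 model (R 4.3.3, lmFit and eBayes with an intensity trend) of log2(signal + 50), over 18459 probe sets with a signal of 100 on at least 2 arrays with 8.64 prior and 10 residual degrees of freedom. P-values are two-sided and Benjamini-Hochberg adjusted, with a threshold of 0.05, and the method was tested on simulated data. Steps that used lec1-1 post-mature green, wild-type seed or seedling arrays were not tested. Named genes were the 12 with the largest lec1-1 ratio, list members, those with the smallest adjusted p per step and those at the thresholds. The rest of the 26 were added after their values were seen. Alternatives varied normalization, offset, floor, filter, arrays, trend, a covariate for whether a lot is stated, replicate block and fold.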

Additional observations from a re-analysis of the deposited data

How the results depend on the processing

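The number of members depended on the rule: 133 with an offset of 1, 37 with an offset of 100, 108 at 3 times and 26 at 6 times, 62 with quantile normalization, and 50 to 66 when 1 array of a group was left out, against 58. The 58 were all among the 133 and the 108, which follows largely from the looser rule, since both settings make the 2 ratios easier to meet. With quantile normalization 57 of the 58 were kept. Without the first lec1-1 post-mature green array 48 were kept and 10 lost, and without the second 53 were kept and 5 lost. In lec1-1 mature green against cotyledon seed, the called members numbered 46 to 56 under the other settings against 56, and 47 to 57 without 1 array. The fit of the 8 lec1-1 arrays alone tested 46 of the 58, and the mature green arrays can decide which pass its filter, so its count of 46 is no support. In globular against 24-hour seed the count was 9 to 13 against 12, and 7 to 10 without 1 array. In cotyledon against globular seed it was 5 to 8 against 6, and 2 to 5 without 1 array. No call of a named gene changed direction under any of these alternatives.

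The AT5G62350 fall in cotyledon seed was lost with quantile normalization (adjusted p = 0.0627), other offsets, no filter and no intensity trend (limma). The AT1G30870 rise in mature green seed was lost with offsets of 1 and 16 (adjusted p = 0.104 and 0.0524, limma). The AT4G32340 fall in globular seed was lost with a covariate for whether a lot is stated (adjusted p = 0.0833, limma). The AT3G57010 rise in cotyledon seed was lost in the fit of 8 arrays (adjusted p = 0.0586, limma). On AtGenome1, 2 genes instead of 1 passed with a floor at 100, AT5G62350 and AT2G25980. With array pair 1 alone 2 passed, of which 1 was lower. With the replicate block the counts were 12, 7 and 56 for the 3 steps. Only 3 of 45 pairs of groups had replicate differences correlated over 0.1 (range -0.09 to 0.18), which cannot exclude that the replicate numbers pair samples. The highest, 0.18, was between lec1-1 mature green and lec1-1 post-mature green seed. A covariate for whether the labels state an array lot, which they do for 1 of 10 lec1-1 arrays, gave 9, 7 and 56. What a missing lot means is not known, so this covariate adjusts for no known batch. With 2 arrays per group and no detection calls, differences between signals below 100 have no order. The promoter motif search was not run.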
